A study of Mus musculus with 2 samples.

Results

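The genes of the m6A methyltransferase complex were examined for the marks on their own transcripts. The 9 genes were the 3 methyltransferase genes Mettl3, Mettl14 and Mettl16 and the 6 genes for other subunits, Wtap, Virma, Zc3h13, Cbll1, Rbm15 and Rbm15b. They were chosen by name, out of 21951 protein-coding genes of the GENCODE M21 annotation of the mouse genome (GRCm38, which is also called mm10), and a listed site belonged to a gene if it lay within the gene interval on the strand of the gene. The sites came from GLORI, in which glyoxal and nitrite deaminate unmethylated adenosines of RNA, so that these are read as G while m6A is still read as A. The poly(A)+ RNA had been taken from the cerebellum and the cerebrum of a mouse that was female, P0 in age and an F1r hybrid, from a C57 mother and a PWK father, with 1 library per tissue and no untreated or mutant group. The files hold only the positions of the sites that the authors kept by methylation rate and read count, so the depth and the methylation rate behind each site are unknown. A position that is missing from a list may be unmethylated, thinly covered or not expressed, and these cannot be told apart. With 1 library per tissue there was no replicate check and no test between the tissues, and the 95% Wilson intervals cover counting error over sites only, although sites of a gene are not independent.

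m6A is the most common internal mark of mRNA and is placed in the nucleus while the RNA is made. METTL3 binds S-adenosylmethionine and transfers the methyl group, and METTL14, whose own fold cannot do so, holds the RNA beside it. WTAP ties this pair to VIRMA, ZC3H13 and the ubiquitin ligase HAKAI, which is the product of Cbll1, while RBM15 and RBM15B bind RNA and bring the complex to it. METTL16 is a separate enzyme that methylates U6 snRNA and hairpins of the Mat2a mRNA. The complex prefers the motif DRACH, a 5-mer that opens with any base but C, goes on with a purine, the methylated A and a C, and ends with any base but G. Sequences are written in DNA letters.

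The cerebellum library listed 79355 sites and the cerebrum library 188295, which is 2.37 times as many. Of 11 hindbrain and cerebellum marker genes, 8 carried a site in the cerebellum library and 5 in the cerebrum library. Atoh1, a marker of cerebellar granule cell progenitors, carried none in either. Of 12 forebrain marker genes, 5 carried a site in the cerebellum library and 12 in the cerebrum library, and Emx1, Tbr1 and Fezf2 were among those with none in the cerebellum.

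The sequences around the sites show what was marked in the writer genes. For each gene that had one, the DRACH site found in both libraries and nearest to the stop codon is given with 21 nt of the reference on the transcript strand, 5′ to 3′, and the capitals mark the DRACH 5-mer. Mettl14 and Mettl16 had no DRACH site in common between the libraries.
Mettl3, CDS, exon 3, chr14:52299978-52299998, minus strand: tactcttgTAACTtacgctga
Wtap, 3′ UTR of the 6-exon isoform, chr17:12975258-12975278, minus strand: cccagtcaAGACTtccctgac
Virma, CDS, exon 13, chr4:11527075-11527095, plus strand: tcttctcaGGACTcatactcc
Zc3h13, 3′ UTR, exon 19, chr14:75343831-75343851, plus strand: tggtttgaAGACAttgctaac
Cbll1, CDS, exon 6, chr12:31487284-31487304, minus strand: caagatacAGACCgtattacc
Rbm15, 3′ UTR, exon 2, chr3:107326088-107326108, minus strand: tggaaaaaTGACCtctttgct
Rbm15b, CDS, exon 1, chr9:106884304-106884324, minus strand: atagtaagGGACAccgcctag
These sites differed in their distance from the last base of the stop codon. The Rbm15b site was at -10 nt and the Cbll1 site at -15 nt, just before it. The Wtap site was at 24 nt in the 6-exon isoform, the Zc3h13 site at 77 nt and the Rbm15 site at 184 nt, all after the stop codon. The Mettl3 and Virma sites were far upstream, at -1307 and -2103 nt. Each of the 9 genes had A in the mm10 reference at all of its listed sites.

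The 9 genes carried 122 sites in the cerebellum library and 252 in the cerebrum library, and 96 of these were at the same position in both. Together they held 278 sites. At least 1 DRACH site on an exon was found in 8 of the 9 genes in each library, all but Mettl14. Of all coding genes, expressed or not, 34.3% had one in the cerebellum and 44.2% in the cerebrum. Among coding genes with a site in the other library, the shares were 58.7% in the cerebellum and 87.6% in the cerebrum, the latter near 8 of 9. The median number of exonic DRACH sites over the 9 genes was 11 in the cerebellum, with a range of 0 to 21, and 20 in the cerebrum, with a range of 0 to 37. The median over the coding genes with such a site was 3 and 5. The sites were spread unevenly among the 9 genes, as the map of the transcripts shows.

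**Figure D1:**
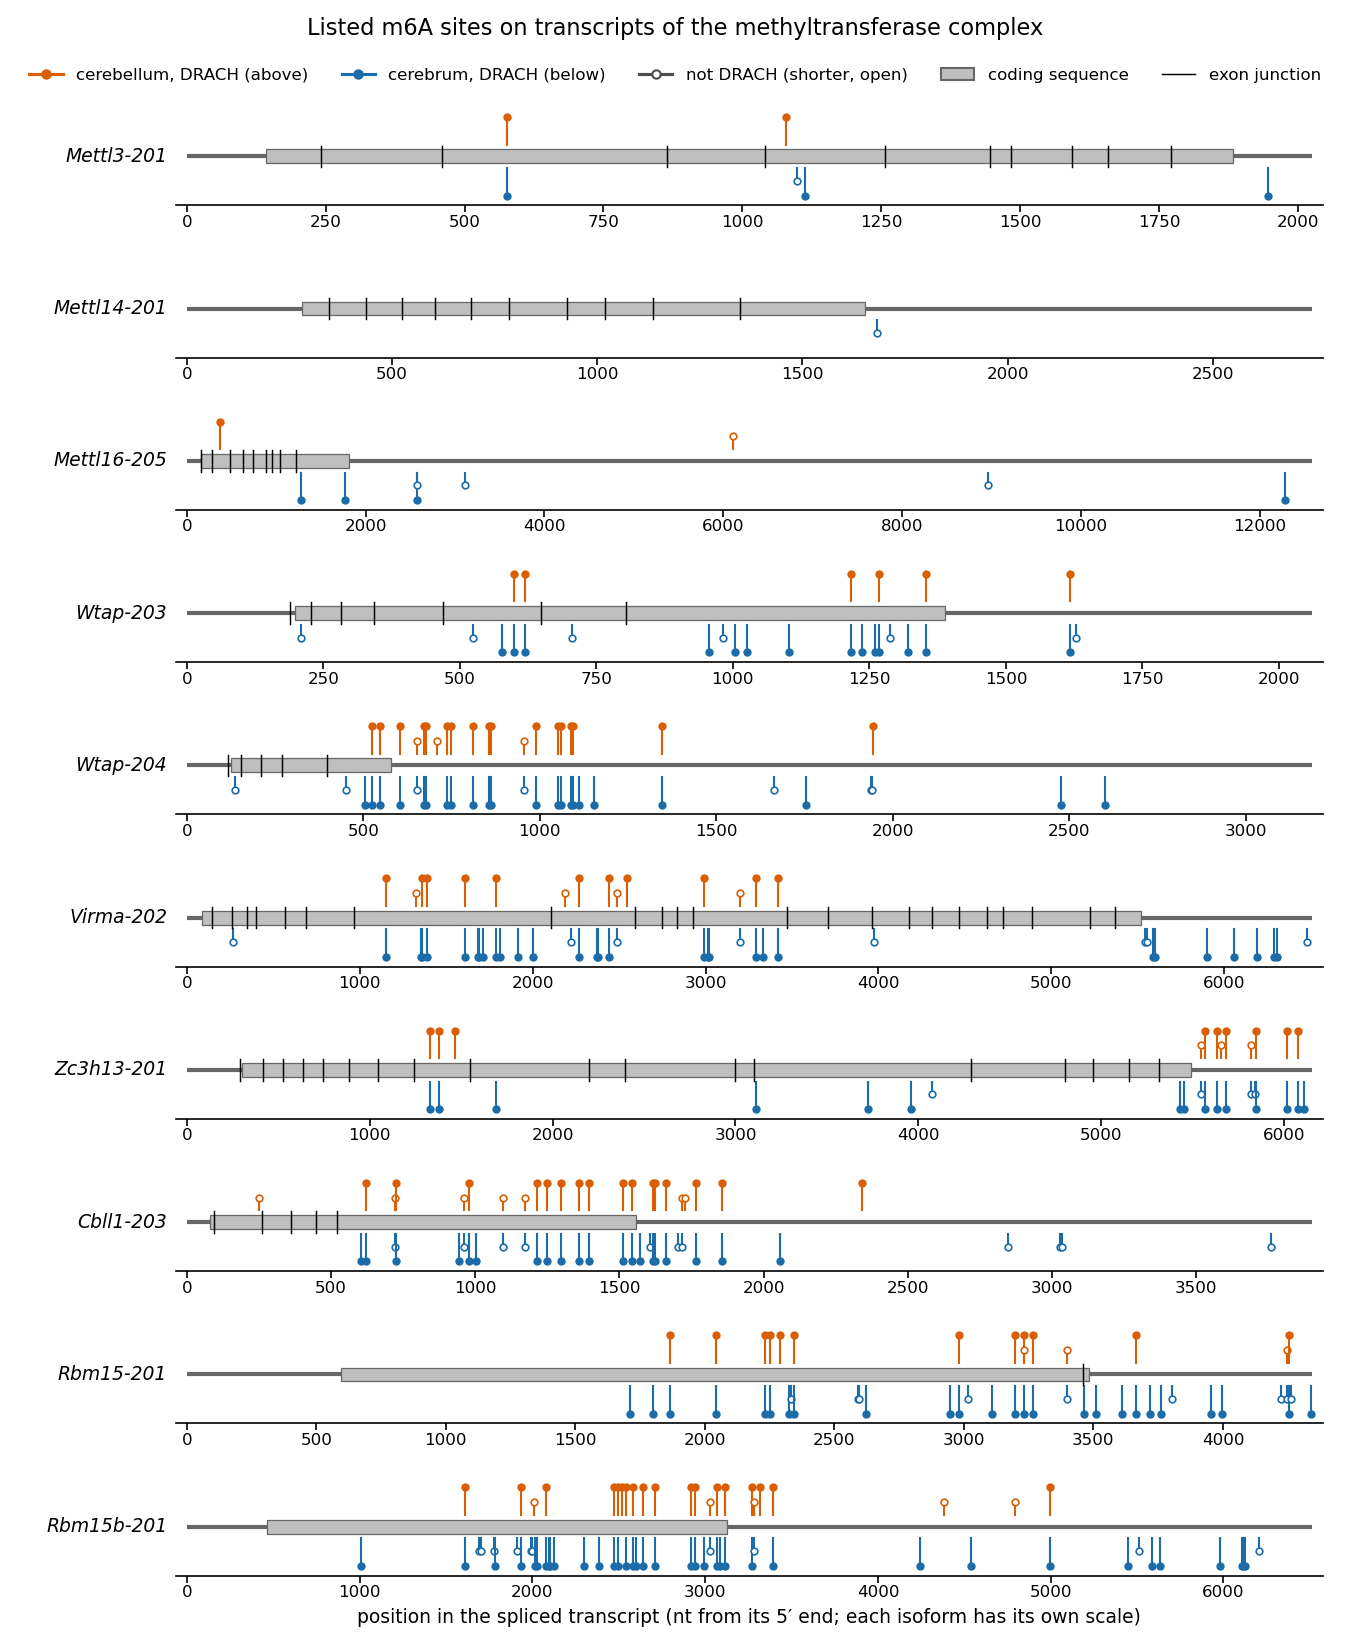
GLORI-detected sites along spliced isoforms of the 9 writer genes, with the position in the transcript in nt on the x axis of each row (scales differ), the coding sequence as a grey box, exon junctions as vertical lines, cerebellum sites above and cerebrum sites below, and filled marks for DRACH sites and shorter open marks for other sites. Wtap is drawn with both isoforms, Mettl14 with its principal isoform, in which 1 of its 5 sites falls, and sites outside the drawn exons are left out. The marks crowd in the long exons of Wtap, Cbll1, Rbm15 and Rbm15b, while Mettl3, Mettl14 and Mettl16 carry few.

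Mettl3, the catalytic subunit (chr14:52294841-52305128, minus strand), had 2 cerebellum sites and 5 cerebrum sites, of which 1 were shared. The shared site was the TAACT shown above in exon 3, which with 405 nt is the longest exon of the gene's 11-exon isoform. Exon 5, of 217 nt, held a TGACT site found only in the cerebellum and a GGACA site found only in the cerebrum. The last exon held 1 GGACT site, 62 nt after the stop codon and found only in the cerebrum, at a place where Tox4 is annotated on the opposite strand. The mRNA of Mettl3 is built of short exons, and 29 of the 38 DRACH adenosines of its 2025-nt transcript lay within 100 nt of a splice junction. Of the 38, the cerebellum list held 2 (5.26%, 1.46% to 17.3%) and the cerebrum list 3 (7.89%, 2.72% to 20.8%).

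Mettl14, the RNA-binding partner of METTL3 (chr3:123368297-123386108, minus strand), had 2 cerebellum sites and 3 cerebrum sites, none shared and none at a DRACH 5-mer. None of their 5-mers had the C that follows the methylated A in the motif. All 5 lay in the 6590-nt last exon of a 7-exon isoform, and 4 of them are intronic in the principal isoform of 11 exons. None of the 158 DRACH adenosines of the 7-exon isoform was listed in either library, which leaves an upper bound of 2.37%. In the principal isoform, none of 70 was listed, with an upper bound of 5.20%.

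Mettl16 (chr11:74770830-74828525, plus strand) had 2 cerebellum sites and 9 cerebrum sites, and none of them was found in both. Its 10-exon isoform has a last exon of 11367 nt, nearly all of it 3′ UTR, and this exon held 1 cerebellum site and 7 cerebrum sites. Among the 232 DRACH adenosines of that exon, 0 were listed in the cerebellum and 4 in the cerebrum. The only DRACH site of the cerebellum library was an AGACT in exon 3. Over the whole transcript, 1 of 256 DRACH adenosines was listed in the cerebellum (0.391%) and 4 of 256 in the cerebrum (1.56%). The long 3′ UTR thus had many motifs and few listed sites, in the annotated isoform. Whether brain cells use the whole of it was not tested.

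The catalytic motifs of the methyltransferases were located by their amino acids. DPPW of METTL3 was at residues 395 to 398 of 580, and its codons held 1 DRACH adenosine and no site, the nearest DRACH site being 212 nt away. EPPL of METTL14, the counterpart of that motif, was at residues 192 to 195 of 456, and NPPF of METTL16 at residues 184 to 187 of 553. The codons of these last motifs held no DRACH adenosine, so that no DRACH site was possible there.

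Wtap, the adaptor subunit (chr17:12966796-12994169, minus strand), had 26 cerebellum sites and 48 cerebrum sites, of which 22 were shared. Its annotation has alternative ends, which were compared after their values had been seen. A 6-exon isoform runs on from exon 6 into a last exon of 2790 nt, which held 20 cerebellum sites and 28 cerebrum sites, 18 of them in both libraries. In the 2727 nt that belong to this isoform and not to the principal one, which has 8 exons, 15 of 56 DRACH adenosines were listed in the cerebellum (26.8%, 17.0% to 39.6%) and 19 of 56 in the cerebrum (33.9%, 22.9% to 47.0%). In the 1600 nt that belong to the 8-exon and not to the 6-exon isoform, 4 of 34 were listed in the cerebellum (11.8%, 4.67% to 26.6%) and 11 of 34 in the cerebrum (32.4%, 19.1% to 49.2%). Both annotated ends were therefore marked in both tissues, and the intervals of the ends overlapped in each.

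The most DRACH sites that any 100-nt window held over the 9 genes were 5, and this number was reached by 4 windows, 2 overlapping ones in the 3′ UTR of the 6-exon Wtap isoform and 2 overlapping ones in the CDS of Rbm15b. The first Wtap window ran from 473 to 531 nt after the stop codon, and of its 5 sites all were in the cerebrum list and 4 in the cerebellum list too. In each Rbm15b window, all 5 sites were in the cerebrum list and 1 of them in the cerebellum list too. Sites of the first window of each gene are shown, as far as their surroundings do not overlap, to give the spacing of the marks, with the 5-mer in capitals.
Wtap, 473 nt after the stop codon, chr17:12974809-12974829, minus strand: gagcatagTGACTtagagaca
Wtap, 508 nt after the stop codon, chr17:12974774-12974794, minus strand: tgccaataAGACTgtggactt
Wtap, 531 nt after the stop codon, chr17:12974751-12974771, minus strand: tgattgttGAACTactgggtc
Rbm15b, -1111 nt from the stop codon, chr9:106885405-106885425, minus strand: cggcatcgGAACTtggatgct
Rbm15b, -1043 nt from the stop codon, chr9:106885337-106885357, minus strand: ccgagaccGGACCtttttgga
The other sites of the Wtap window were an AGACA 481 nt and a GGACT 515 nt after the stop codon. The GAACT at 531 nt was the one found only in the cerebrum. Of the Rbm15b sites shown, the GGACC was found in both libraries and the GAACT only in the cerebrum. The other sites of the first Rbm15b window were a TGACC at -1099 nt, a GGACT at -1027 nt and a GGACC at -1022 nt. All of these were found only in the cerebrum.

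Virma, the large scaffold subunit that is known for directing the complex towards the end of the coding sequence and the 3′ UTR (chr4:11485958-11550684, plus strand), had 15 cerebellum sites and 43 cerebrum sites, of which 12 were shared. All 15 cerebellum sites lay in 3 internal coding exons of the 24-exon isoform. Exon 8, of 1141 nt, held 6 cerebellum sites and 12 cerebrum sites, exon 9, of 489 nt, held 5 and 6, and exon 13, of 545 nt, held 4 and 7. The last exon, of 1140 nt, held 0 cerebellum sites and 10 cerebrum sites. In the 3′ UTR of this isoform, 0 of 27 DRACH adenosines were listed in the cerebellum, with an upper bound of 12.5%, and 7 of 27 in the cerebrum (25.9%, 13.2% to 44.7%). A shorter isoform ends in the intron after exon 13, and its 482 additional nt also held no site in the cerebellum and 4 in the cerebrum. At 1 of these, a TGACT, the listed adenosine is the last base of the TGA stop codon of the shorter isoform. This comparison of ends was likewise made after the values were seen. The cerebellum sites of Virma were thus confined to the part that both isoforms share, in which 11 of 83 DRACH adenosines were listed (13.3%, 7.56% to 22.2%), against 22 of 83 in the cerebrum (26.5%, 18.2% to 36.9%).

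Zc3h13, a zinc finger subunit known to hold the complex in the nucleus (chr14:75284373-75344426, plus strand), had 14 cerebellum sites and 24 cerebrum sites, of which 10 were shared. Its last exon, exon 19 of 833 nt, held 9 cerebellum sites and 12 cerebrum sites, 8 of them shared. In the 3′ UTR, 6 of 11 DRACH adenosines were listed in the cerebellum (54.5%, 28.01% to 78.7%) and 7 of 11 in the cerebrum (63.6%, 35.4% to 84.8%). In its long coding sequence, 3 of 132 were listed in the cerebellum (2.27%, 0.776% to 6.47%) and 8 of 132 in the cerebrum (6.06%, 3.10% to 11.5%). Not every long internal exon of Zc3h13 was marked. Exon 12, of 601 nt with 9 DRACH adenosines, and exon 15, of 513 nt with 24, held no site in either library, while exon 14, of 1191 nt, held none in the cerebellum and 4 in the cerebrum. The gene also had 7 intronic sites, none at a DRACH 5-mer.

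Cbll1, which encodes HAKAI (chr12:31484829-31499616, minus strand), had 23 cerebellum sites and 31 cerebrum sites, of which 20 were shared. The libraries differed least in this gene, with 1.35 cerebrum sites for each cerebellum site. All 31 cerebrum sites and 22 of the 23 cerebellum sites lay in the last exon, which is 3379 nt long in the principal isoform and holds most of the coding sequence. In the CDS of the longest isoform, 10 of 32 DRACH adenosines were listed in the cerebellum (31.2%, 17.9% to 48.6%) and 13 of 32 in the cerebrum (40.6%, 25.5% to 57.7%). In the 3′ UTR, 6 of 56 were listed in the cerebellum (10.7%, 5.0% to 21.5%) and 7 of 56 in the cerebrum (12.5%, 6.19% to 23.6%). The gene Gm29542 is annotated on the opposite strand over 22 of the 34 Cbll1 sites.

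Rbm15, one of the RNA-binding subunits that recruit the complex (chr3:107325421-107333673, minus strand), had 15 cerebellum sites and 42 cerebrum sites, of which 13 were shared. Its coding sequence lies almost whole in exon 1, of 3459 nt, which held 12 cerebellum sites and 20 cerebrum sites. Exon 2, of 884 nt, held 3 and 14. In the 3′ UTR, the listed DRACH adenosines numbered 2 of 11 in the cerebellum (18.2%, 5.14% to 47.7%) and 9 of 11 in the cerebrum (81.8%, 52.3% to 94.9%). The other 8 cerebrum sites of Rbm15, 3 of them DRACH, lay in the 3910-nt intron between these exons, at chr3:107326305-107330214, which another annotated isoform retains. No cerebellum site lay there, with 0 of its 72 DRACH adenosines listed and an upper bound of 5.07%, and the cerebrum share was 4.17% (1.43% to 11.6%). The intron was looked at after its values were seen.

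Rbm15b, the paralog of Rbm15 (chr9:106880918-106887428, minus strand), had 23 cerebellum sites and 47 cerebrum sites, of which 18 were shared. It is a single exon of 6511 nt, so that no site could be near a splice junction. In the CDS, 14 of 53 DRACH adenosines were listed in the cerebellum (26.4%, 16.4% to 39.6%) and 25 of 53 in the cerebrum (47.2%, 34.4% to 60.3%). In the 3′ UTR, 4 of 70 were listed in the cerebellum (5.71%, 2.24% to 13.8%) and 12 of 70 in the cerebrum (17.1%, 10.1% to 27.6%). Its 52 sites also lie in an annotated intron of a long isoform of Manf on the same strand, and were counted for Rbm15b.

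The paralogs allowed a comparison of marks at matched places in related proteins, which was made on pairs found after the values were seen. Their proteins of 962 and 887 residues aligned over 846 residues, of which 417 were identical (49.3%). In the coding sequences, Rbm15 had 62 DRACH adenosines with 17 sites in either library and Rbm15b had 53 with 26. At 12 aligned positions, both genes had a DRACH adenosine. Of these, 4 were listed in both genes, 1 in Rbm15 only, 3 in Rbm15b only and 4 in neither. The 4 pairs listed in both genes are shown to compare the surroundings, with the 5-mer in capitals.
Rbm15 codon 424, chr3:107331800-107331820, minus strand: gagaatctAGACAtgtctcac
Rbm15b codon 384, chr9:106885807-106885827, minus strand: cagaatctGGACAtggcacac
Rbm15 codon 584, chr3:107331320-107331340, minus strand: actgattcTGACTgggtgcca
Rbm15b codon 546, chr9:106885321-106885341, minus strand: ttggaaggGGACTggaccagc
Rbm15 codon 797, chr3:107330681-107330701, minus strand: ctactgaaGAACAgcaacttc
Rbm15b codon 727, chr9:106884778-106884798, minus strand: gtgttgaaAAACAgctgcttt
Rbm15 codon 891, chr3:107330399-107330419, minus strand: ccacttagGAACCttgtgtcc
Rbm15b codon 820, chr9:106884499-106884519, minus strand: cttctcagGAACCtagtctcc
The 21 nt around the sites were identical at 17, 8, 14 and 16 positions in the pairs as listed. The sites of 3 pairs were found in both libraries in both genes, and in the pair at codons 584 and 546 the Rbm15b site was not listed in the cerebellum. Each pair encodes the same residue in both proteins, an aspartate in the first and second pairs and an asparagine in the others.

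**Figure D2:**
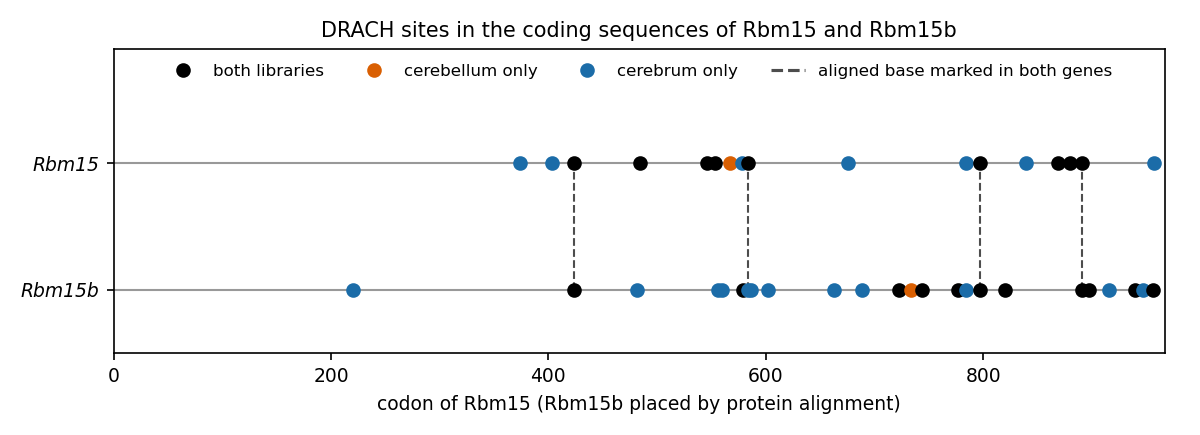
DRACH sites in the coding sequences of Rbm15 and Rbm15b, with the codon of Rbm15 on the x axis and Rbm15b placed by the protein alignment, black points for sites in both libraries and coloured points for sites in 1 library, and dashed lines that join the 4 pairs at aligned bases. The 17 points of Rbm15 are all its coding DRACH sites, 16 of them at aligned codons, while the 24 points of Rbm15b are those at aligned codons. Most points have no marked partner in the other gene.

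To compare genes that differ in length and sequence, the share of DRACH adenosines that were listed as sites was computed on the longest coding isoform of each gene. Over the 9 genes it was 86 of 1125 in the cerebellum (7.64%, 6.23% to 9.35%) and 155 of 1125 in the cerebrum (13.8%, 11.9% to 15.9%). The coding genes with a site had a share of 5.52% in the cerebellum and 7.31% in the cerebrum, and 12 genes of readers and erasers of m6A had 5.98% and 8.36%. That pool was uneven. Its genes Ythdf1, Ythdf2 and Ythdf3 had 12 of 64, 18 of 81 and 24 of 97 listed in the cerebellum. In the cerebrum they had 17 of 64, 26 of 81 and 29 of 97. Ythdc2, Igf2bp1, Igf2bp3, Hnrnpa2b1 and Hnrnpc had 0 in both libraries. Ythdc1 had 2 and 4 of 61 on its longest isoform, but 13 and 24 DRACH sites on all its exons. The share differed widely among the writer genes. In the cerebrum it was highest in Wtap at 30.6%, followed by Rbm15b at 28.9%, Rbm15 at 28.7%, Cbll1 at 22.7%, Virma at 19.0%, Zc3h13 at 10.3%, Mettl3 at 7.89%, Mettl16 at 1.56% and Mettl14 at 0%. Neighbours in this order had overlapping intervals. In the cerebellum the order was Wtap at 23.6%, Cbll1 at 18.2%, Rbm15b at 14.1%, Rbm15 at 13.8%, Virma at 7.19%, Zc3h13 at 6.21%, Mettl3 at 5.26%, Mettl16 at 0.391% and Mettl14 at 0%. Neighbours overlapped there too. The place of Wtap rests on its isoform. On the principal isoform it had 14 of 50 listed in the cerebrum (28%), below Rbm15b and Rbm15, and 6 of 50 in the cerebellum (12%), below Cbll1, Rbm15b and Rbm15.

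The methyltransferase genes stood at the low end of both orders. This grouping was made after the values were seen and was not tested. Over Mettl3, Mettl14 and Mettl16, 3 of 452 DRACH adenosines were listed in the cerebellum (0.664%, 0.226% to 1.93%) and 7 of 452 in the cerebrum (1.55%, 0.752% to 3.16%). Mettl14 held 158 of these adenosines and Mettl16 256, so the pooled share rests mainly on these genes. Mettl3 held 38, and its own 5.26% and 7.89% were near the 5.52% and 7.31% of the coding genes with a site. Over the 6 genes of the other subunits, 83 of 673 were listed in the cerebellum (12.3%, 10.1% to 15.0%) and 148 of 673 in the cerebrum (22.0%, 19.0% to 25.3%). Most of the DRACH adenosines of the methyltransferase genes, 378 of 452, were in the last exons, of which 0 were listed in the cerebellum and 5 in the cerebrum. The 6590-nt last exon of the 7-exon Mettl14 isoform held 142 of them, and much of it is intronic in the principal isoform. On the principal isoforms, 3 of 364 DRACH adenosines of these genes were listed in the cerebellum (0.824%) and 7 of 364 in the cerebrum (1.92%). Expression of the genes and the coverage of these exons were not measured here, and their part in the difference was not tested.

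**Figure D3:**
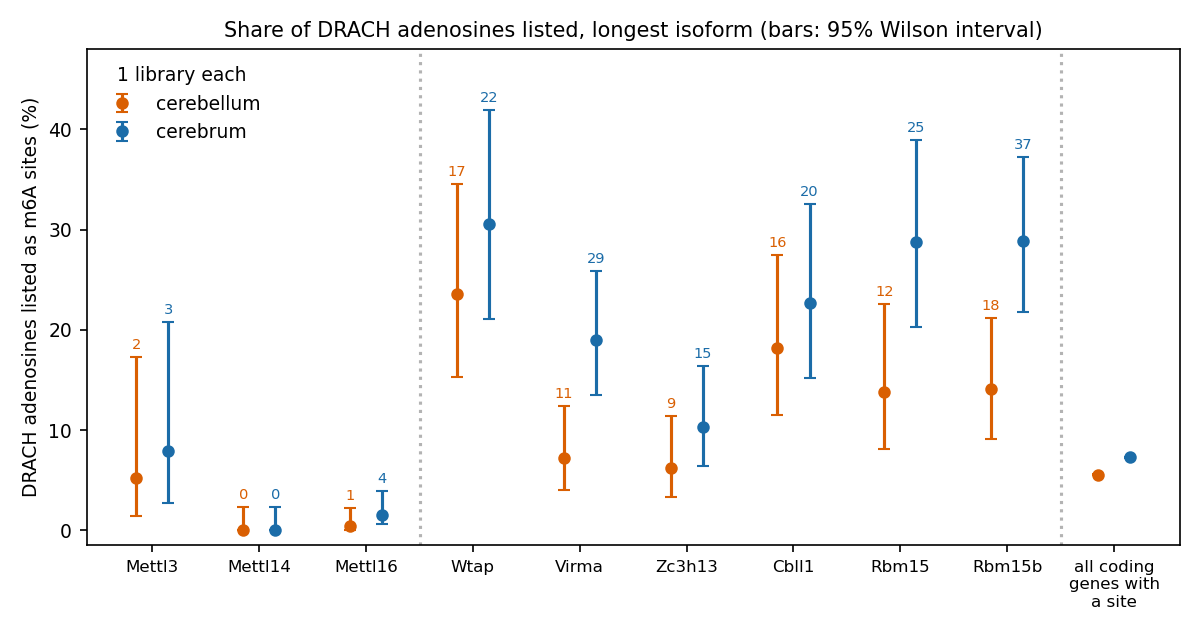
Share of DRACH adenosines of the longest isoform listed as sites, in percent on the y axis, for each of the 9 writer genes and for all coding genes with a site, with the cerebellum and the cerebrum library as separate points and 95% Wilson intervals as bars. The points of the 6 other subunits lie above the 5.52% and 7.31% of the coding genes in both libraries. The bars of Zc3h13 in both libraries and of Virma in the cerebellum still include these shares. Mettl3 lies close to them, and Mettl14 and Mettl16 lie below.

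The places of the writer genes among all coding genes with a site are given as a description. By the share of listed DRACH adenosines of the longest isoform, 97.6% of 8882 genes were lower than Wtap in the cerebellum and 97.6% of 12360 in the cerebrum. For Rbm15b the values were 90.2% in the cerebellum and 97.2% in the cerebrum, for Rbm15 89.8% and 97.1%, and for Cbll1 94.4% and 93.9%. Virma had 73.2% of the genes below it in the cerebellum and 90.5% in the cerebrum, Zc3h13 68.4% and 74.6%, and Mettl3 62.9% and 66.6%. Mettl16 had 18.8% and 31.0% of the genes below it, and Mettl14, with no DRACH site, had none. On its principal isoform Wtap had only 12% and 28% listed, and its place is given for the longest isoform alone. The 9 genes had a median share of 7.19% (cerebellum) and 19.0% (cerebrum), against 3.43% and 4.35% over all coding genes with a site.

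**Figure D4:**
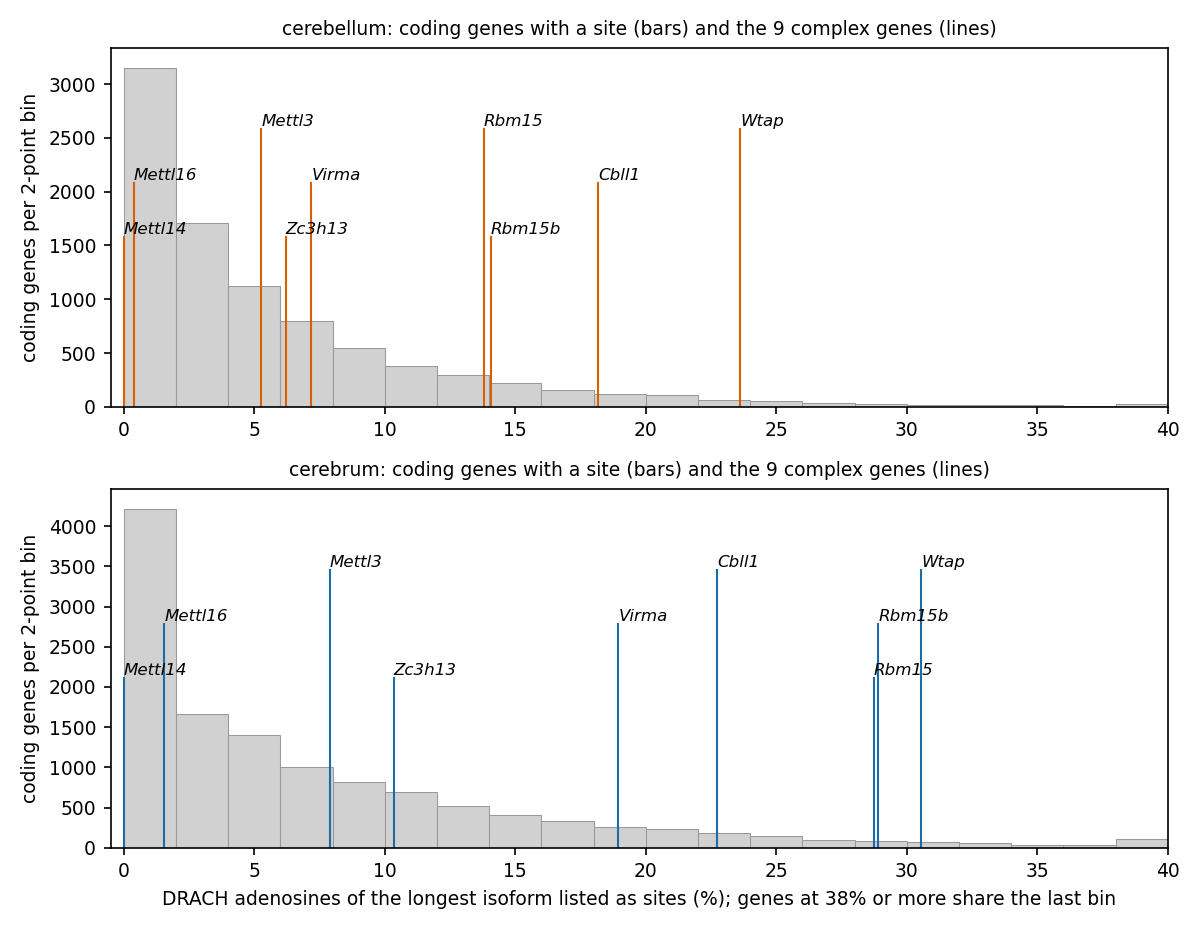
Distribution of the share of listed DRACH adenosines over the coding genes with a site, with the share in percent on the x axis and the number of genes per bin as bars on the y axis, 1 panel per library, the last bin holding all genes above it, and vertical lines at the writer genes (their height only separates the names). Wtap, on its longest isoform, lies in the upper tail at 23.6% and 30.6%, and Mettl14 and Mettl16 lie in the lowest bin.

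By transcript region, no site of the writer genes was in a 5′ UTR in either library, where the 9 isoforms held 24 DRACH adenosines. The coding genes with a site had 2.99% of the 5′ UTR adenosines listed in the cerebellum and 3.73% in the cerebrum, so that 0 of 24 is near the background. In the cerebellum, 69 of the 122 sites were in the CDS (56.6%, 47.7% to 65.0%), 49 in the 3′ UTR (40.2%, 31.9% to 49.0%) and 4 in introns (3.28%). In the cerebrum, 131 of 252 were in the CDS (51.98%, 45.8% to 58.1%), 100 in the 3′ UTR (39.7%, 33.8% to 45.8%), 9 in other annotated exons and 12 in introns (4.76%). These region shares of sites were not computed over other genes. Relative to the DRACH adenosines present, 53 of 506 were listed in the CDS in the cerebellum (10.5%) and 91 of 506 in the cerebrum (17.98%), where the coding genes with a site had 4.71% and 6.38%. In the 3′ UTR, the writer genes had 33 of 595 in the cerebellum (5.55%) and 64 of 595 in the cerebrum (10.8%), where the coding genes had 6.59% and 8.67%. The 365 3′ UTR adenosines of the methyltransferase genes, of which 0 and 3 were listed, weigh on the latter share, and without them it was 33 of 230 in the cerebellum (14.3%) and 61 of 230 in the cerebrum (26.5%). On their principal isoforms the methyltransferase genes held 253 such adenosines, of which 0 and 3 were listed.

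Around the stop codon the listed share was higher than over the CDS or the 3′ UTR as a whole. Within 200 nt of the stop codon, 23 of the 85 DRACH adenosines of the writer genes were listed in the cerebellum (27.1%, 18.8% to 37.3%) and 35 of 85 in the cerebrum (41.2%, 31.3% to 51.8%). The coding genes with a site had 12.2% and 15.2% there. The single genes differed, with 5 and 6 of 7 in Rbm15b and 7 and 8 of 14 in Cbll1 but 0 of 10 in Mettl14 in both libraries. Of the exonic sites of any motif, 35 of 118 in the cerebellum (29.7%) and 54 of 231 in the cerebrum (23.4%) lay in this window. This share of sites was not computed over other genes.

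m6A is known to be sparse close to splice junctions and in short internal exons, and the writer genes were read for this. Among adenosines in DRACH from 1 to 50 nt from a junction, 1 of 172 was listed in the cerebellum (0.581%) and 3 of 172 in the cerebrum (1.74%). From 51 to 100 nt, the cerebellum share was 6.59% and the cerebrum share 8.79%, from 101 to 200 nt they were 14.9% and 28.4%, and beyond that up to 400 nt 18.4% and 32.9%. Further away, or without a junction, it was 7.65% and 13.9%. The coding genes with a site went through the same order of distances with 0.455%, 2.49%, 11.1%, 14.6% and 6.67% in the cerebellum and 0.870%, 3.46%, 13.9%, 18.4% and 8.97% in the cerebrum.

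**Figure D5:**
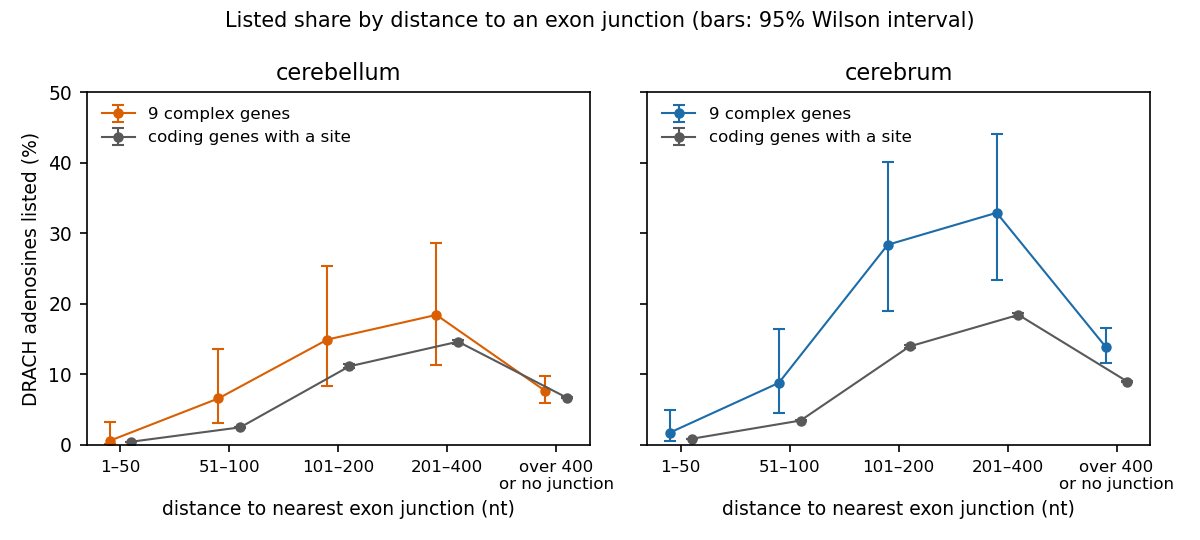
Share of DRACH adenosines listed as sites, in percent, against the distance from the nearest splice junction in nt, for the 9 writer genes and for all coding genes with a site, 1 panel per library, with 95% Wilson intervals as bars. In the writer genes the share is lowest at 1 to 50 nt (0.581% and 1.74%) and highest in the bin that ends at 400 nt (18.4% and 32.9%), for the cerebellum and cerebrum in turn.

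The exons of the longest isoforms were also grouped by length. The 68 internal and first exons under 400 nt held 210 DRACH adenosines, of which the cerebellum list held 5 (2.38%, 1.02% to 5.45%) and the cerebrum list 3 (1.43%, 0.487% to 4.12%). The 9 such exons of 400 nt or more held 212, of which the cerebellum list held 22 (10.4%, 6.95% to 15.2%) and the cerebrum list 42 (19.8%, 15.0% to 25.7%). These were exon 3 of Mettl3 and exons of Virma, Zc3h13 and Rbm15. In the last exons, counting the only exon of Rbm15b, 59 of 703 were listed in the cerebellum (8.39%) and 110 of 703 in the cerebrum (15.6%). The last exon of the 6-exon Wtap isoform takes in 179 nt that form a short internal exon, exon 6, of the principal isoform. In it, 2 of 8 DRACH adenosines were listed in the cerebellum and 3 of 8 in the cerebrum. For all coding genes with a site the shares of the short exons, the long exons and the last exons were 0.551%, 11.8% and 7.32% in the cerebellum and 0.951%, 15.8% and 9.72% in the cerebrum.

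The sequence at the sites of the writer genes was DRACH for 90 of 122 in the cerebellum (73.8%, 65.3% to 80.8%) and 172 of 252 in the cerebrum (68.3%, 62.3% to 73.7%), beside 62.1% and 46.7% over all sites of the libraries. All sites take in every listed position, also outside coding genes. The sites of the writer genes were mostly exonic, and exonic sites of coding genes alone were not set beside them. DRACH made up 81 of the 96 sites found in both libraries (84.4%, 75.8% to 90.3%), 9 of the 26 found only in the cerebellum (34.6%, 19.4% to 53.8%) and 91 of the 156 found only in the cerebrum (58.3%, 50.5% to 65.8%). Over all sites of the libraries, the same split gave 82.7%, 30.1% and 34.4%, so that the first 2 shares of the writer genes were near those of all sites. None of the 4 intronic sites of the cerebellum or the 12 of the cerebrum was DRACH. Among the 5-mers of the 9 genes in the cerebrum, AGACT was listed at 29 of 81 places (35.8%, 26.2% to 46.7%), where the share over all coding genes with a site was 15.1%. GGACC was listed at 16 of 60 (26.7%, 17.1% to 39.0%) and over all genes at 8.82%. GGACT was listed at 12 of 56 (21.4%, 12.7% to 33.8%) and over all genes at 19.0%, and TAACC at 0 of 27, with 0.443% over all genes. In the cerebellum, GGACT was listed at 6 of 56 (10.7%, 5.0% to 21.5%) and GAACT at 3 of 60 (5.0%, 1.72% to 13.7%), both below the 13.9% and 13.03% over all genes, although both intervals include these. In the cerebrum both lay above the share over all genes, with GAACT at 11 of 60 (18.3%) against 16.3%. The 5-mers named here are a selection.

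Between the libraries, the writer genes had 2.07 cerebrum sites for each cerebellum site, beside 2.37 over all sites. Of the cerebellum sites of the writer genes 78.7% (70.6% to 85.0%) were also in the cerebrum list, and 38.1% of the cerebrum sites (32.3% to 44.2%) were in the cerebellum list. Over all sites, again with those outside coding genes, these shares were 60.8% and 25.6%. For the DRACH sites of the writer genes, 81 of 90 in the cerebellum (90.0%, 82.1% to 94.6%) were also in the cerebrum, beside 81.0% of all DRACH sites of the cerebellum list. Sites found only in the cerebrum outnumbered those found only in the cerebellum in each of the 9 genes, from 3 against 2 in Mettl14 to 31 against 3 in Virma. Because the cerebrum list is longer as a whole and the depth is unknown, these counts say nothing of the level of methylation.

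METTL16 is known for the nonamer TACAGAGAA, in which the A after the C is the methylated base. Only this exact nonamer was searched for, and the transcripts of the 9 writer genes held none. Over the principal isoforms of all coding genes it occurred 893 times, and the adenosine was listed at 5 places in the cerebellum (0.560%) and 6 in the cerebrum (0.672%). Among them, 4 in each library were in the last exon of Mat2a, which encodes the S-adenosylmethionine synthetase that supplies the writers, on the minus strand of chromosome 6. The 5 occurrences in its 3′ UTR are shown with the nonamer in capitals, since they differ only in their surroundings.
Mat2a, 43 nt after the stop codon, chr6:72434240-72434260, both libraries: cgtaggtTACAGAGAAgcctt
Mat2a, 827 nt after the stop codon, chr6:72433456-72433476, not listed: tgtgataTACAGAGAAgtcac
Mat2a, 1006 nt after the stop codon, chr6:72433277-72433297, both libraries: gtgtagcTACAGAGAAaccag
Mat2a, 1121 nt after the stop codon, chr6:72433162-72433182, both libraries: gcgtaagTACAGAGAAgccat
Mat2a, 1340 nt after the stop codon, chr6:72432943-72432963, both libraries: ggtgtggTACAGAGAAgccag
The remaining listed places were in the 3′ UTRs of Wdr77, in both libraries, and Raph1, in the cerebrum. Mat2a also had an ACAGA site 1232 nt after the stop codon, listed in both libraries. It lies in TACAGAAAA, with A in place of the last G of the nonamer, and was not counted above.

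Other genes of the pathway were set beside the writers. Of 8 genes for other RNA methyltransferases and for the supply of S-adenosylmethionine, 3 had an exonic DRACH site in the cerebellum and 4 in the cerebrum, with medians of 0 and 1 site. Mettl4, an snRNA methyltransferase, had 5 sites of any motif in the cerebellum and 20 in the cerebrum, while Mettl5, which acts on 18S rRNA, and Ahcy had 0 in both. Of the 12 readers and erasers, 8 had an exonic DRACH site in the cerebellum and 9 in the cerebrum, with medians of 1.5 and 3 sites. The cytoplasmic reader gene Ythdf3 had 38 sites of any motif in the cerebellum and 50 in the cerebrum, and Ythdf2 had 24 and 39. Of the demethylase genes, Fto had 14 and 36 sites and Alkbh5 2 and 7.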

How the data were processed

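The deposited files hold genomic positions of m6A sites, a unit that is none of counts, rates or signals. The authors called the sites with GLORI-tools on mm10 and on mm10 with PWK bases, combined the calls and kept those above a minimum methylation rate and read count. Read depth was thus not known. The deamination step was run warmer than in the published method. The cerebrum list carries the abbreviation for the cerebellum in its name, and tissues were taken from the labels.

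Sites were assigned to GENCODE M21, which is not the release named by the authors, on the longest coding isoform with complete UTRs, with Python 3.11.15, pysam 0.24.0 and numpy 2.4.6. Wilson intervals (95%) came from scipy 1.17.1, the protein alignment from Biopython 1.88 (BLOSUM62, gap penalties 11 and 1) and plots from matplotlib 3.10.9. Proteins were translated from the annotated coding sequences. The assignment was tested on simulated sites. Sequences were shown by rule: the shared DRACH site nearest to the stop codon in each gene, sites where mm10 has no A, sites at TACAGAGAA, sites in catalytic motifs and those of the densest 100-nt windows. The genes, lists and rules were chosen with earlier results of these data known. Alternatives were the sites counted, the isoform, the motif and the windows. No test between groups was made.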

Additional observations from a re-analysis of the deposited data

How the results depend on the processing

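With 1 library per tissue no replicate could be left out, and no paired analysis was possible because each tissue is 1 sample. Under the alternatives, 86 values were classed as unchanged and 26 as moved. Some of these alternatives could change little or nothing. For region shares, a site outside the principal isoform was placed on another coding isoform, and the shares stayed the same. Reading the centre base as A changed no DRACH share, since all sites of the 9 genes have A in the reference. A share was classed as moved when it left its counting interval. Site counts had no such interval, so their class does not rest on one. The 252 cerebrum sites of all members were classed as unchanged at 172 when only DRACH sites were counted. They were also classed so at 211 on the longest isoform. The values classed as moved, given first under the alternative, were as follows, and the cause was not tested unless the alternative itself removes the sites. Counting only sites found in both libraries, DRACH made up 84.4% of the sites of the writer genes (73.8% in the cerebellum and 68.3% in the cerebrum otherwise), introns 0% in both libraries (3.28% and 4.76%) and the CDS 60.4% of the cerebrum sites (51.98%). Counting only DRACH sites, introns held 0% in both libraries and the CDS 59.3% in the cerebrum. The listed share of DRACH adenosines over the 9 genes in the cerebrum was 15.99% for RRACH and 16.7% beyond 100 nt from a junction (13.8%), and over the 6 genes of the other subunits beyond 100 nt the cerebellum share was 16.1% (12.3%) and the cerebrum share 28.8% (22.0%). A window of 400 nt around the stop codon held 45.8% of the exonic sites from the cerebellum (29.7%) and 36.8% of those from the cerebrum (23.4%). Within 200 nt of a junction, 9.09% of the cerebrum DRACH adenosines were listed (4.18% within 100 nt). Among coding genes with a site in the other library, 58.7% had a DRACH site in the cerebellum (34.3%) and 87.6% in the cerebrum (44.2%). The site counts of single genes moved for Mettl14, Mettl16 and Zc3h13 in both libraries and for Mettl3 and Cbll1 in the cerebrum when only DRACH sites were counted, and for Wtap in the cerebrum on the longest isoform alone, with 29 of 48 sites. On the principal isoform Wtap had 6 of 50 DRACH adenosines listed in the cerebellum, in place of 17 of 72, and was no longer the gene with the highest share in either library. Unknown depth and expression limit every statement on an absent site.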
